A study of Mus musculus with 6 samples.

Results

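Oxidative phosphorylation genes were followed in the livers of 3 male mice, with 1 mouse in each group, and were grouped by the respiratory complex to which their product belongs. The members were the array probes with a single gene symbol that named an NADH dehydrogenase (Nduf), succinate dehydrogenase (Sdh), cytochrome bc1 (Uqcr), cytochrome c oxidase (Cox4 to Cox8) or ATP synthase (Atp5) gene. They numbered 78 of 16896 probes and 61 gene symbols. Of these symbols 60 named subunit genes and 1, Ndufs5-ps, a pseudogene that was kept apart. The first mouse was fed ad libitum and killed at 17 days, an age whose unit rests on its label alone. The second was fed ad libitum and killed at 174 days, and the third was kept on caloric restriction and killed at 177 days. Total RNA of each liver was read on 2 kinds of array, A and B, which carry different spots. The strain, the start and degree of the restriction and any pooling were not given in the sources used here.

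Oxidative phosphorylation turns the electrons of food into ATP at the inner mitochondrial membrane. Complex I takes electrons from NADH and complex II from succinate. Complex III passes them from ubiquinol to cytochrome c, and complex IV passes them on to oxygen. Complexes I, III and IV pump protons as they do so, and complex V, the ATP synthase, makes ATP as the protons flow back. A hepatocyte depends on this machinery for gluconeogenesis, urea synthesis and secretion. The subunits described here are encoded in the nucleus, and the few encoded in mitochondrial DNA were not analysed here.

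Spot intensities had been deposited with medians from 35.8 to 402.5 per array. For array A the medians of the 17-day, 174-day and calorie-restricted mouse were 364.3, 35.8 and 375.0. For array B they were 402.5, 60.8 and 332.8 in the same order. Both arrays of the 174-day mouse were thus much dimmer than those of the other mice. Each kind of array was therefore quantile-normalized over the 3 mice, and a level below is a normalized intensity of 1 probe, to be compared between mice and not between probes. A probe counted as measured where its mean level over the 3 mice lay above the middle of its array kind, and is called dim otherwise. A gene's difference is the median over its measured probes, as log2 of the first mouse over the second, so that 1 is 2-fold. Measured probes gave a value for 33 of 60 subunit genes, among 3865 genes in all, and 27 subunit genes had dim probes only. The liver label was borne out by hepatocyte markers: Alb, Apoa1, Nr5a2, Serpina1e and Ttr were on the arrays, and all 6 of their probes were measured. The summed level of these 6 probes was 24430, 21050 and 33710 in the 17-day, 174-day and calorie-restricted mouse. Of this, the brightest probe in each mouse gave 12210, 9990 and 22610, so 1 probe weighs heavily in the sum. The median difference of the 5 genes was -0.29 between the 174-day and the 17-day mouse and 0.26 between the calorie-restricted and the 174-day mouse. Between the calorie-restricted and the 17-day mouse it was 0.08. After a correction for spot position, taken as the order of spots in the deposited file, these were -0.17, 0.15 and -0.02. For macrophages 4 of 9 listed genes were on the arrays (C1qa, C1qb, C1qc and Lyz2), with a summed level between 1696 and 1962. Fibroblast markers (4 genes) summed to between 4434 and 4946, erythroid markers (3 genes) to between 6145 and 6448 and cholangiocyte markers (3 genes) to between 476.5 and 629.5. Pecam1, the endothelial marker on the arrays, ran from 818.1 to 1097, and none of the 8 listed muscle genes was named there. Their part in the differences below was not tested. In whole liver, fewer cells of a type and less RNA per cell cannot be told apart.

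With 1 mouse per group no test between groups could be made, and no difference has an error between animals. The spread between probes of the same gene gives a partial scale. Over the 6 subunit genes with at least 2 measured probes, 14 probes in all, the pooled SD between probes of a gene was 0.31 log2 for the age difference, 0.41 for the diet difference and 0.28 between the calorie-restricted and the 17-day mouse. This SD holds the error of spots and probes only.

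As a group the subunit genes had medians near those of all genes in the reported setting. The median of the 33 measured genes was 0.01 log2 between the 174-day and the 17-day mouse, where that of all 3865 genes was -0.03. It was -0.09 between the calorie-restricted and the 174-day mouse, against -0.04 for all genes, and -0.06 between the calorie-restricted and the 17-day mouse, against -0.09. With age 18 subunit genes lay above 0 and 15 below, and with diet 15 lay above and 18 below. Scaling by median centring shifted all genes, to a median of 0.21 with age and -0.31 with diet, and the subunit genes to 0.24 and -0.49, with 25 above 0 in the first case and 25 below in the second. After a correction for spot position both splits turned, to 15 above and 17 below with age (median -0.05) and 21 above and 11 below with diet (median 0.09). No measured subunit gene was 2-fold apart with age, where 0.724% of all genes reached 2-fold upward and 0.44% downward in the older mouse. With diet 1 of 33 was at least 2-fold higher, Cox7a2l, and 2 were at least 2-fold lower, Ndufs3 and Atp5e. Of all genes 2.25% were higher and 4.61% lower at that threshold, so the members' counts are near the background. Median centring gave 1 higher and 5 lower, where 1.29% and 15.8% of all genes were called. Between the calorie-restricted and the 17-day mouse no measured subunit gene reached 2-fold, where 0.466% of all genes were higher and 1.11% lower. The 3 comparisons share mice, so the values of any 2 of them are not independent. The age and the diet difference both use the dimmer arrays of the 174-day mouse, with opposite sign. A deviation on those arrays alone would thus move the age and the diet value of a gene in opposite directions. Array brightness and mouse cannot be told apart here, and the part of brightness in the differences was not tested.

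**Figure D1:**
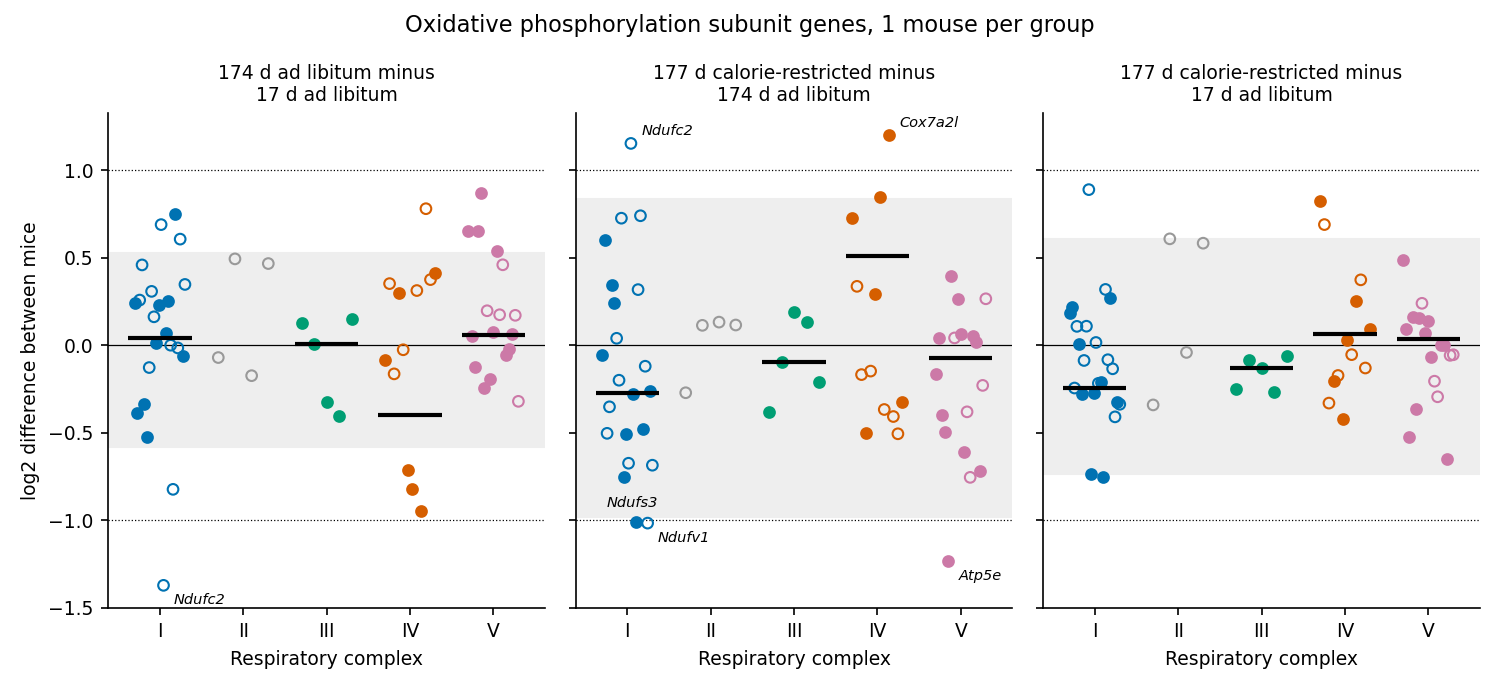
Log2 difference between mice for each subunit gene (y axis) by respiratory complex (x axis) in the 3 comparisons. Filled points are genes with a measured probe, open points genes with dim probes only, bars the median of the filled points, the grey band the 5th to 95th percentile of all 3865 genes, and dotted lines 2-fold. Most filled points lie inside the band, and the complex IV bar lies at -0.40 in the age panel and 0.51 in the diet panel.

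Some members lay at the edges of the distribution of all genes. With age 8 of the 33 measured genes lay outside the range that holds the middle 90% of all genes (-0.58 to 0.53). Above it were Atp5a1, Atp5d, Atp5e, Atp5j and Ndufs7, and below it Cox6b2, Cox6c and Cox7a2l. With diet 4 of 33 lay outside the corresponding range of -0.98 to 0.84, and between the calorie-restricted and the 17-day mouse 3 of 33. The count with age was 5 of 33 after median centring, 7 of 32 after the position correction and 7 of 60 with dim probes included. Per gene, the highest of the 3 mice was the 174-day mouse for 16 subunit genes (48.5%, against 35.4% of all genes), the calorie-restricted mouse for 11 and the 17-day mouse for 6 (18.2%, against 30.3%). The lowest was the 174-day mouse for 13 (39.4%, against 36.3%), the calorie-restricted mouse also for 13 (39.4%, against 45.9%) and the 17-day mouse for 7 (21.2%, against 17.7%). The median range over the 3 mice was 0.50 log2 for subunit genes and 0.46 for all genes.

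Cox6a1 held the most motif matches of any subunit gene when matches on the 2 strands of a place are counted apart. Upstream sequences are shown for it and for the 3 genes that were 2-fold apart with diet. Each is the 250 bases before the annotated start from RefSeq on GRCm38.p6, on the minus strand of the genome and written 5′ to 3′ along the gene. Capitals mark matches to a motif of NRF1, a transcription factor of nuclear respiratory genes (GCGCANGCG), or to the core shared by ETS factors such as GABPA (CCGGAAG), on either strand. A match is a run of letters and not a measured binding site. The regions are Cox7a2l at chr17:83514334-83514583, Atp5e at chr2:174464102-174464351, Ndufs3 at chr2:90904722-90904971 and Cox6a1 at chr5:115348959-115349208.
Cox7a2l: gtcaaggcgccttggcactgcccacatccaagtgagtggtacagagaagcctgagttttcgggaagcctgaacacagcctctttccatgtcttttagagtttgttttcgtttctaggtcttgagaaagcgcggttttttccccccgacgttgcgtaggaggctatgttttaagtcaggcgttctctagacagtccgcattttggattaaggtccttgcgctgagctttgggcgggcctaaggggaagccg
Atp5e: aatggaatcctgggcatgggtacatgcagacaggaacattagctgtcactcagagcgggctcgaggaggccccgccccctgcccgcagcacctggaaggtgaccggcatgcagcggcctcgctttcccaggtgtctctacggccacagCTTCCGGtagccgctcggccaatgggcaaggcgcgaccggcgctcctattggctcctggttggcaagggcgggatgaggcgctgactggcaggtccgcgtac
Ndufs3: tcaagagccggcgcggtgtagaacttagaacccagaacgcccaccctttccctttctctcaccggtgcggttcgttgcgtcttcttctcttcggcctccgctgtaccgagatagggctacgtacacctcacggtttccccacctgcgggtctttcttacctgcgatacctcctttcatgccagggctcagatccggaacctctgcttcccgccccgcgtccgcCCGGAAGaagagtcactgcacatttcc
Cox6a1: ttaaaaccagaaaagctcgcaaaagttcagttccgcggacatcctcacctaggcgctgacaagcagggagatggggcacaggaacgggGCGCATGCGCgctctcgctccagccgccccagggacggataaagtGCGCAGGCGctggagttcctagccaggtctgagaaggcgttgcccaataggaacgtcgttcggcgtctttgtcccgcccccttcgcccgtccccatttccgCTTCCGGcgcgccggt

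The Ndufs3 and Atp5e regions each held 1 ETS core, the Cox7a2l region none of the motifs searched, and the Cox6a1 region 1 ETS core and NRF1 matches at 2 places, at 1 of them on both strands. RefSeq promoters were matched for 51 of 60 subunit genes, with 55 start regions. The NRF1 motif stood in 18.2% of these 55 regions and in 5.16% of all 32851 regions of the same length. A first search with an NRF1 motif longer by 1 letter gave 16.4% against 3.74%. The ETS core stood in 21.8% against 6.91%. The motif of the estrogen-related receptors (TCAAGGTCA) was found upstream of Atp5g3 alone (1.82% against 0.387%), and that of YY1 (AAGATGGC) upstream of Atp5j alone (1.82% against 1.56%). The subunit regions had a median GC content of 56.4%, and all regions 52.4%, so base composition differs beside the motif shares.

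Complex I, the NADH dehydrogenase, had 22 subunit genes on the arrays, of which 10 were measured. The median of these 10 was 0.04 with age, -0.27 with diet and -0.24 between the calorie-restricted and the 17-day mouse. The diet median was -0.57 after median centring and -0.04 after the position correction, with 5 genes on each side of 0, and the median against the 17-day mouse was then -0.0078. Ndufs3, a core subunit of the arm that faces the matrix, had levels of 286, 340 and 169 in the 17-day, 174-day and calorie-restricted mouse. The calorie-restricted mouse thus had the lowest level, at -1.01 from the 174-day and -0.75 from the 17-day mouse. Ndufs7, a core iron-sulfur subunit, had levels of 326, 547 and 393 in the same order and was highest in the 174-day mouse (0.75 with age, -0.48 with diet). Ndufv2, an iron-sulfur subunit of the NADH-binding module, ran at 746, 715 and 596, and Ndufs1, the largest core subunit, at 481, 505 and 416.

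The core subunits carry the redox centres, while accessory subunits surround them. All 4 measured core genes (Ndufs1, Ndufs3, Ndufs7 and Ndufv2) were lower in the calorie-restricted than in the 174-day mouse, from -1.01 to -0.26. The dim probes of Ndufv1, the flavin-binding subunit, and Ndufs8 pointed the same way, at -1.02 and -0.12. The 6 measured accessory genes were split, with 3 above and 3 below 0 (median 0.09), but after median centring, which lowers most genes with diet, 5 of the 6 were below 0. Over all genes, 2035 of 3865 lay below 0. The 4 core genes were measured on array B alone, where 1187 of 2106 genes lay below 0, against 982 of 2022 on array A. The part of the array kind in their differences was not tested. After a correction for spot position, 3 of the 4 core genes stayed below 0, Ndufs1 was at 0.09, and Ndufs3 was at -0.28. The dim probes of Ndufv1 and Ndufs8 were then at -0.35 and 0.42.

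Among the accessory subunits, Ndufa12 had levels of 3882, 2974 and 4524 in the 17-day, 174-day and calorie-restricted mouse. It was the highest complex I gene with diet, at 0.61, but at -0.38 after median centring. Ndufb10 had levels of 2457, 1710 and 2027 and was the lowest with age, at -0.52, but at -0.05 after median centring. Ndufa8 was at -0.33 with age and 0.34 with diet. The measured probe of Ndufb7 had levels of 1165, 1175 and 699 and was at -0.75 with diet, but at -0.10 after the position correction, and its dim probe was at 0.17. Both probes of Ndufa10 were measured, at 0.39 and 0.09 with age and 0.06 and -0.18 with diet. The dim spot of Ndufc2, a membrane-arm subunit, stood farthest out with age (-1.37, and 1.15 with diet) and read below the floor in the 174-day mouse.

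Complex II, the succinate dehydrogenase, links the TCA cycle to the respiratory chain. Its 4 genes had 5 probes, all dim, so none entered the counts above. Sdhb, the iron-sulfur subunit, had levels of 124, 174 and 189 in the 17-day, 174-day and calorie-restricted mouse. Sdhd, a membrane anchor, had nearly the same course in the reported setting, with 125, 173 and 187. The 17-day mouse was lowest for both, by 0.49 and 0.47 against the 174-day mouse and by 0.61 and 0.58 against the calorie-restricted mouse. After the position correction the courses differed more. Sdhb was then at 0.20 with age and 0.32 between the calorie-restricted and the 17-day mouse, and Sdhd at 0.64 and 0.64. The other anchor, Sdhc, had levels of 96.8, 85.9 and 94.2. The 2 probes of Sdha, the flavoprotein, were at -0.04 and -0.64 between the calorie-restricted and the 17-day mouse. The Sdhb and Sdhd probes lie on array A and those of Sdha and Sdhc on array B, so gene and array kind cannot be told apart here.

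Complex III, the cytochrome bc1 complex, had a measured probe for each of its 5 genes on the arrays. Differences ran from -0.40 to 0.15 with age and from -0.38 to 0.19 with diet. Uqcrc2, a core protein, had levels of 452, 341 and 375 in the 17-day, 174-day and calorie-restricted mouse. Its measured and its dim probe were both lower in the 174-day mouse, at -0.40 and -0.45 with age. Uqcrc1, the other core protein, was at -0.32 with age and 0.19 with diet, and its dim probe at -0.07 and 0.37. The small subunits Uqcr11 (0.13 with age, -0.38 with diet), Uqcrh, the hinge protein (0.15 and -0.21), and Uqcrb (0.01 and -0.09) lay on the other side of 0. With diet 2 of 5 genes were above 0, but 5 of 5 after the correction for spot position. There Uqcr11 was at 0.40 and Uqcrc2 at 0.59. With age that correction put Uqcr11 and Uqcrh at -0.10, on the side of the core proteins, and Uqcrb at 0.11.

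**Figure D2:**
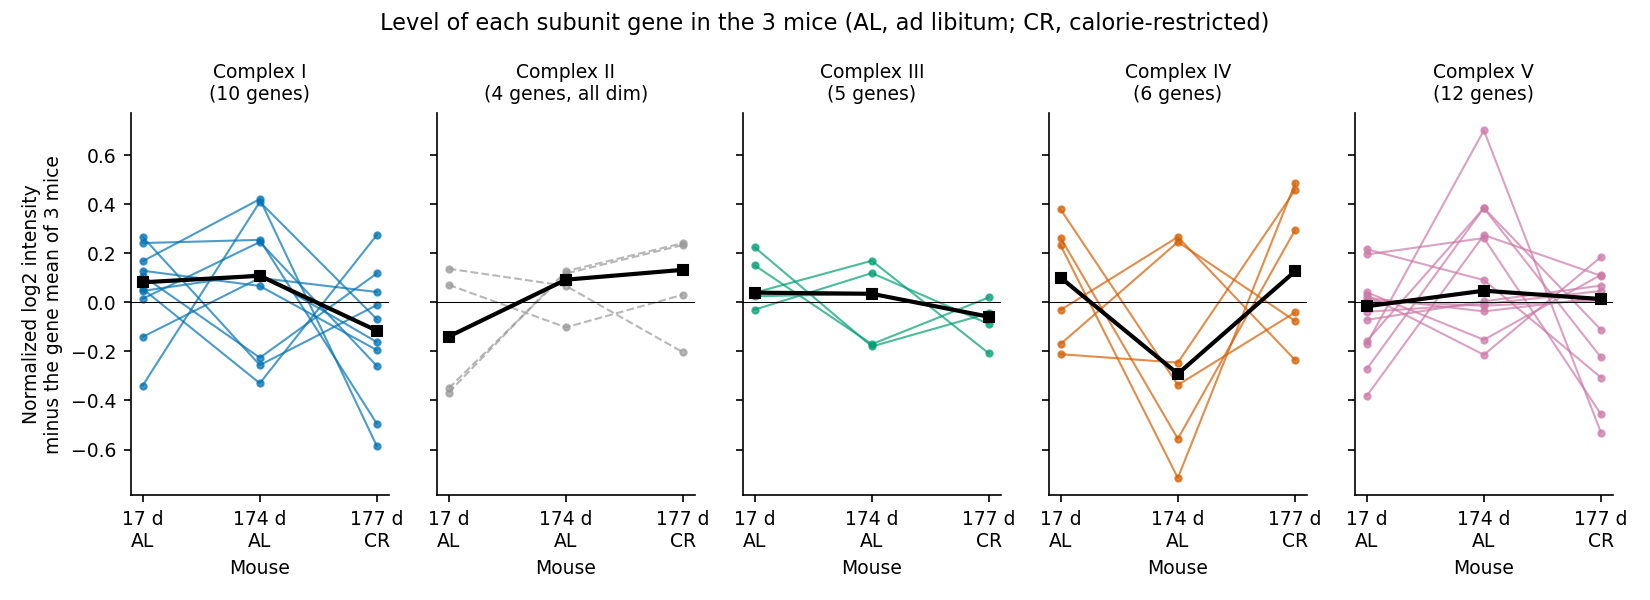
Normalized log2 intensity of each subunit gene minus its own mean over the 3 mice (y axis) in each mouse (x axis), with 1 panel per complex. Each coloured line is a gene (measured probes, or dim probes as dashed lines for complex II) and the black squares are medians over genes. The complex IV median is lowest in the 174-day mouse, whereas those of complexes III and V stay close to 0.

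Complex IV, the cytochrome c oxidase, stood apart from the other complexes in the reported setting. The median of its 6 measured genes was -0.40 with age and 0.51 with diet, but 0.06 between the calorie-restricted and the 17-day mouse. Cox7a2l, which links complex IV to complex III in supercomplexes, had levels of 384, 199 and 458 in the 17-day, 174-day and calorie-restricted mouse (-0.95 with age, 1.20 with diet). Cox6c, a membrane subunit, had levels of 292, 166 and 299 and was at -0.82 and 0.85. Both were low in the 174-day mouse and near each other in the other mice. Cox6b2, annotated as the testis isoform of subunit 6b, had levels of 413, 251 and 308, and signal from another isoform could not be checked. It was at -0.72 with age and 0.30 with diet, and at -0.19 and 0.08 after the position correction. Cox6a1 and Cox8a, the isoforms typical of liver, ran the other way, at 0.30 and 0.42 with age and -0.50 and -0.32 with diet.

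Cox4i1, the main isoform of the regulatory subunit 4, was the only complex IV gene with 3 measured probes. Its level on array A was 344, 319 and 671 in the 17-day, 174-day and calorie-restricted mouse. The array B probes read 232, 247 and 410, and 323, 304 and 376. All 3 were highest in the calorie-restricted mouse, at 1.07, 0.73 and 0.31 from the 174-day and 0.96, 0.82 and 0.22 from the 17-day mouse. After the position correction the diet differences were 0.71, 0.08 and -0.15 and those from the 17-day mouse 0.45, 0.39 and -0.08, so that the third probe was no longer highest there. The age differences of the same probes in the reported setting were -0.11, 0.09 and -0.09.

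These complex IV values changed with the probes that were counted and under the correction for spot position. The dim probe of Cox7a2l was at 0.34 with age and -0.06 with diet, and with it the gene was at -0.30 and 0.57, below 2-fold. The 6 complex IV genes with dim probes only (Cox5a, Cox5b, Cox6b1, Cox7a2, Cox7b and Cox7c) ran from -0.16 to 0.78 with age and from -0.51 to 0.34 with diet. Cox5a was the highest of them with diet, at 0.34, and at 0.69 against the 17-day mouse. Cox7b was at 0.78 and -0.41 with diet, Cox7a2 at 0.31 and -0.37, and Cox6b1 at -0.03 and -0.15. With all 12 genes the complex IV median was 0.14 with age and -0.16 with diet, against 0.12 and -0.17 for all 60 subunit genes. After the correction for spot position the median of the 6 measured genes was -0.06 with age and 0.08 with diet. That correction moved the diet difference of the Cox4i1 probes by -0.36, -0.65 and -0.45 and that of Cox6c by -0.61, to 0.24. Cox7a2l kept its place there, at -0.75 with age and 1.40 with diet. The position of a spot, taken from file order, and the gene on it cannot be told apart for genes with a single measured probe.

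**Figure D3:**
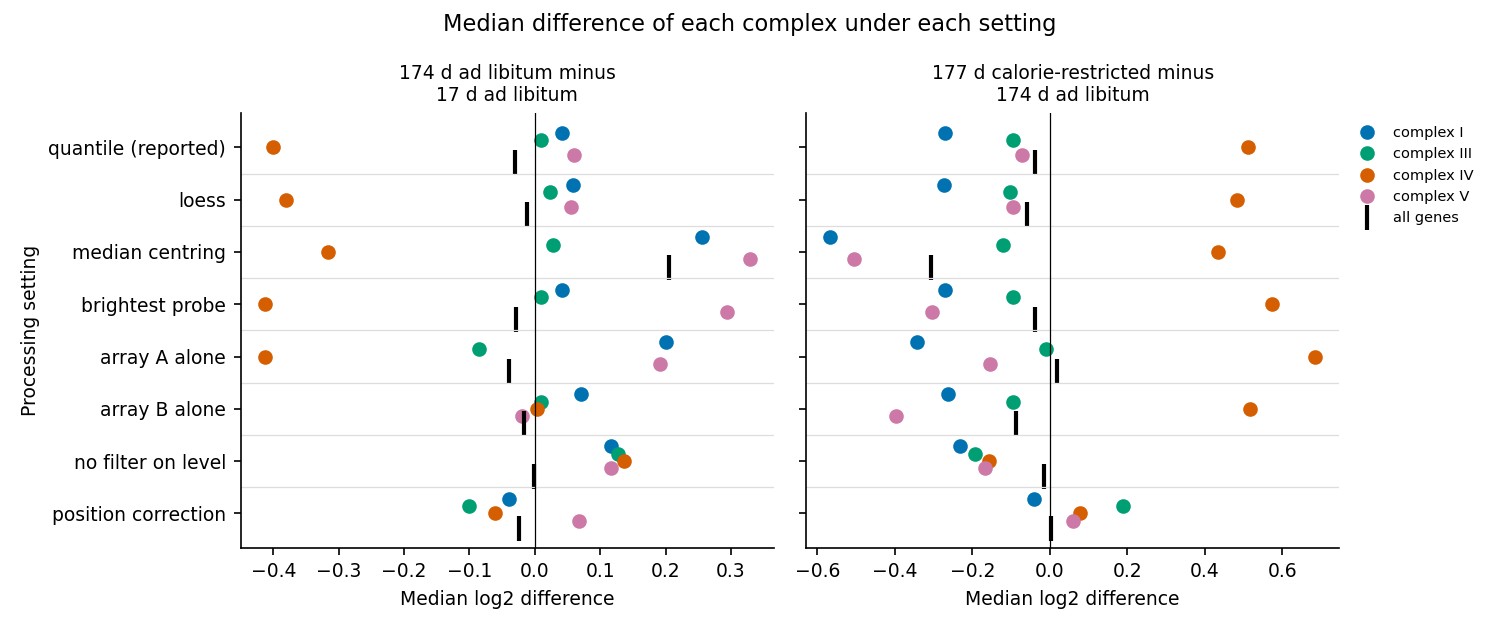
Median log2 difference (x axis) of the measured genes of complexes I, III, IV and V, and of all genes (black bars), under 8 processing settings (y axis) for the age and the diet comparison. The complex IV points lie apart in most settings, at -0.40 and 0.51 in the top line. They join the other complexes without the filter on level (0.14 and -0.16) and after the position correction (-0.06 and 0.08). In the age panel they also join them on array B alone (0.0041).

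Complex V, the ATP synthase, had 17 genes on the arrays and 12 measured, with a median of 0.06 with age, -0.07 with diet and 0.04 between the calorie-restricted and the 17-day mouse. Its F1 head, which forms ATP, had all 5 of its genes measured. Atp5e, the epsilon subunit of the central stalk, had levels of 345, 631 and 269 in the 17-day, 174-day and calorie-restricted mouse. It was highest in the 174-day mouse, at 0.87 with age and -1.23 with diet, and at 0.27 and -0.50 after the position correction. Atp5a1, the alpha subunit, had levels of 177, 279 and 249, and Atp5d, the delta subunit, 140, 221 and 157. Both were at 0.66 with age. Atp5b, the catalytic beta subunit, stayed close to 0 on all 3 of its measured probes, from -0.15 to 0.19 with age and from -0.15 to 0.27 with diet. Atp5c1, the gamma subunit, was at -0.13 with age on its measured and 0.36 on its dim probe, and at -0.40 and -0.39 with diet.

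The F1 median was 0.66 with age, over 5 genes of which 4 lay above 0, and that of the other 7 complex V genes was -0.02. After the position correction, where Atp5d no longer passed the filter on level, the F1 median was 0.19 over 4 genes. On array B alone it was -0.05 over 3 genes.

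The membrane part and the outer stalk complete the ATP synthase. The c-ring, which turns in the membrane, is encoded by Atp5g1, Atp5g2 and Atp5g3, whose precursors yield the same mature protein. Atp5g1 had levels of 761, 643 and 848 in the 17-day, 174-day and calorie-restricted mouse on its measured probe, and Atp5g3 had 615, 537 and 646. Both were lowest in the 174-day mouse (-0.24 and -0.19 with age, 0.40 and 0.26 with diet), but not after median centring, where Atp5g1 was at 0.01 with age. The dim probe of Atp5g1 was at 0.22 and -0.16. Atp5g2, with a dim probe only, was at 0.20 and 0.04. Atp5j, of the outer stalk, was at 0.54 with age and -0.61 with diet. Atp5mpl, a small membrane subunit, had levels of 1273, 1334 and 810 and was at -0.72 with diet and -0.65 against the 17-day mouse, but at 0.23 and -0.02 after the position correction.

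Where a subunit gene had several probes, they often disagreed in sign. Of 15 genes with at least 2 probes, dim ones included, all probes lay on the same side of 0 for 5 genes with age, 6 with diet and 10 between the calorie-restricted and the 17-day mouse. The genes with 1 side for diet were Cox4i1, Atp5c1, Sdha, Uqcrb, Uqcrc1 and Uqcrc2. Atp5l, of the membrane part, was at 0.64 with diet on array A but at -0.53 on array B, the widest pair among measured probes. The probes of Atp5h, of the outer stalk, were at 0.31 and -0.18, and those of Atp5md, a small membrane subunit, at 0.26 and -0.21.

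**Figure D4:**
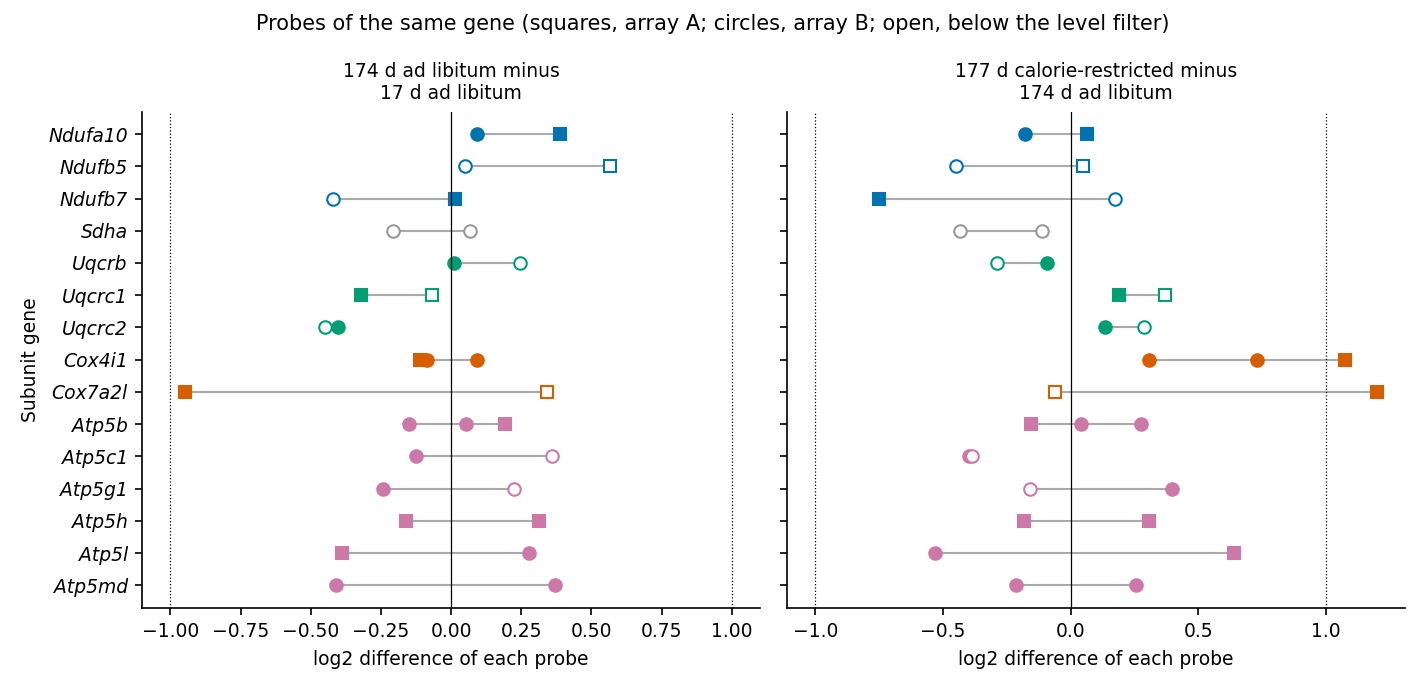
Log2 difference of every probe (x axis) of the 15 subunit genes with at least 2 probes (y axis) in the age and the diet comparison. Squares are array A, circles array B, open symbols dim probes, and grey lines join the probes of a gene. The probes of Cox4i1 lie from 0.31 to 1.07 in the diet panel, while those of Cox7a2l and Atp5l lie on both sides of 0.

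The genes that build, feed and regulate the chain were described by fixed lists. Of 50 assembly factors 18 were on the arrays and 9 measured, with a median of 0.04 with age and 0.32 with diet and none 2-fold apart. With diet they ran from 0.87 for Ndufaf6 and 0.53 for Ndufaf1, both of complex I assembly, to -0.38 for Sdhaf2 and -0.76 for Coa3, of complex IV assembly. The diet median was 0.12 with dim probes included and 0.14 after the position correction, where Ndufaf6 was at 0.49 and Coa3 at -0.35. The 5 measured electron carrier genes had medians of -0.10 and -0.14. Among them, Cyc1, the cytochrome c1 of complex III, was at 0.02 with age and -0.15 with diet, and Etfdh, which passes electrons from fatty acid oxidation to ubiquinone, at -0.39 and 0.86 (0.50 with diet after the position correction). The 11 measured TCA cycle and pyruvate dehydrogenase genes had medians of 0.02 and -0.03. Of these, 1 was 2-fold apart with diet, Idh3a, the catalytic subunit of the NAD-dependent isocitrate dehydrogenase, at 1.20 and at 0.75 after the position correction. Idh3g, another subunit of that enzyme, was at 0.72 and 0.78. At the low end of that list with diet were Dlat (-0.58) and Dlst (-0.30), which were at -0.28 and 0.07 after the position correction.

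Regulators of mitochondrial biogenesis had 7 measured genes, with medians of -0.16 with age and -0.01 with diet. The coactivator gene Pprc1 was at 0.57 with age and -1.09 with diet, and at -0.54 with diet after the position correction. Its relative Ppargc1b was at -0.26 and 0.87, and the transcription factor Nrf1 at -0.45 and 0.42. These became 0.31 for Ppargc1b and 0.22 for Nrf1 with diet after the position correction. For phosphate and ATP exchange 2 genes were measured, the phosphate carrier Slc25a3 (0.13 and -0.28) and the creatine kinase gene Ckmt1 (0.54 and -0.62, and after the position correction 0.97 and -1.14). No list was tested, since each group had 1 mouse.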

How the data were processed

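The authors deposited 1 spot intensity per probe and array, on a linear scale in arbitrary units as read from the values. The label chemistry, scanner, background treatment and scaling were not given in the sources used here, so dim spots may have fold differences that are too small or too large. Probes were named through the platform annotation of GEO, and all 78 member probes matched a RefSeq gene of GRCm38.p6. Values under an array's 5th percentile were set to it. After the log2 step, the 3 arrays of each kind were brought to a common distribution (quantile normalization). Measured probes had a mean over the mice beyond the 50th percentile for that kind of array, and a gene took the median of its measured probes.

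The members, the related lists and the alternatives were chosen with earlier results of these data known. Named were, per comparison, the 2 highest and 2 lowest genes of each complex, genes 2-fold apart, genes with several measured probes, the isoform families, the Sdh genes, and the 2 highest and 2 lowest genes of each related list where the text describes them. Other genes, among them Ndufc2, Ndufv1, Ndufs8 and Atp5j, were added once their values were known. The position correction cut each array, in file order, into 16 blocks of 528 spots and subtracted median deviations per block and per place in the block. No layout of the spots on the array was used, so file order stands in for position. The median per place rests on 1 spot from each of the 16 blocks. That step may therefore add noise or remove signal, which was not tested. The number of arrays limits the precision, with 1 mouse per group and no test. The procedure was tested on simulated data, with a constant offset for the dimmer mouse. Limits for passing were set only for data simulated without differences between blocks. The simulation therefore does not show how the procedure handles position effects or the noise of these arrays. Python 3.11.15, numpy 2.4.6, pandas 2.3.3, statsmodels 0.14.6 and matplotlib 3.10.9 were used.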

Additional observations from a re-analysis of the deposited data

How the results depend on the processing

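Counts at 2-fold and medians by complex were recomputed under 10 settings, and the counts also at 1.5-fold. A single gene was held to have moved when it changed by at least the SD between probes of a gene. That limit is loose for a median over many genes, so medians within it are not called stable. The diet median of all subunit genes ran from -0.49 after median centring to 0.087 after the position correction, and that of complex I from -0.57 to -0.04 under the same settings. With age, 1 of 33 genes was 2-fold higher after median centring, where 61 of all 3869 genes were. Without the filter on level 1 of 60 was 2-fold lower, where 90 of all 7151 were. At 1.5-fold, 4 were higher and 3 lower with age. With diet, the count of higher genes was 2 of 33 with the brightest probe, where 92 of all 3865 genes were higher. It was 2 of 13 on array A alone (49 of all 2022) and 0 of 24 on array B alone (50 of all 2106). At 1.5-fold it was 4. The count of lower genes was 5 of 33 after median centring (613 of all 3869) and 5 at 1.5-fold. It was 0 of 14 for the top 25% of probes by level, where 56 of all 1840 were lower. On array A alone it was 0 of 13 (105 of all 2022), and after the position correction 0 of 32 (78 of all 3869). Between the calorie-restricted and the 17-day mouse, 1 gene was 1.5-fold higher and 3 lower. No share of all genes was taken at 1.5-fold, so the counts at that threshold have no background beside them. The complex IV median with age was 0.14 without the filter on level, 0.0041 on array B alone and -0.061 after the position correction. With diet it was -0.16 without the filter and 0.079 after the position correction. Among the top 25% of probes by level complex IV was Cox4i1 alone, at 1.07 with diet and 0.96 against the 17-day mouse. The complex V median with diet was -0.50 after median centring, which moved the median of all genes to 0.21 with age and -0.31 with diet. The cause of these changes was not tested. Of 744 recomputed values of single named genes 687 stayed within the limit and 57 moved, 27 of them under the position correction, which changed the sign of 22 of 84. Part of this tally was fixed in advance and is no measure of stability. No subunit probe read exactly 10, so all 87 values stayed without such spots, and all 87 stayed with the higher floor. A gene with 1 measured probe also keeps its value with the brightest probe, on its own array alone or within the top 25%. No paired analysis was possible because each group is 1 mouse. Brightness limits the results, since 27 of 60 subunit genes had dim probes only.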

Other observations

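Measured subunit genes with an NRF1 or ETS match upstream were set beside those with neither, a grouping chosen after the values were seen. With diet the median was -0.40 over 11 genes with a match, 8 of them below 0, and 0.12 over 14 genes without, 5 of them below 0. Both groups spread widely, from -1.23 to 0.34 and from -0.50 to 1.20. With dim probes included the medians were -0.24 over 18 genes and -0.12 over 33, and after the position correction -0.10 over 11 and 0.11 over 13. After median centring, which lowers most genes with diet, both medians were below 0. They were -0.62 with a match, with 10 of 11 genes below 0, and -0.36 without, with 9 of 14 below 0. No test was made.

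The pseudogene Ndufs5-ps had a dim probe only, with levels of 138 in the 17-day, 98.9 in the 174-day and 148 in the calorie-restricted mouse. Signal of the pseudogene and of its parent gene cannot be told apart here, since the spot's sequence was not used.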
